A study of Mus musculus with 6 samples.

Results

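Microtubule plus-end proteins ride on the growing tips of microtubules, and 7 mouse genes of 3 of their families were examined here at the level of single annotated isoforms. They were the CLASP genes Clasp1 and Clasp2, the CLIP genes Clip1 and Clip2, and the end-binding (EB) genes Mapre1, Mapre2 and Mapre3. The members were every transcript row of the deposited table carrying one of these symbols, which gave 77 of 141196 transcripts and 7 of 52962 genes. The study sequenced poly(A) RNA of mouse brain cortex directly on nanopores, which reads each RNA molecule with its poly(A) tail. One group was wild-type C57BL/6 cortex (WT, 3 samples). The other was C57BL/6 cortex labelled Fmr1 KO, and FMRP_KO in the sample titles (3 samples), meaning mice without a working gene for FMRP, which binds neuronal mRNAs and holds back their translation. The knockout allele, the age and the sex of the mice are not given in the sources used here, nor whether replicates are separate mice, so p-values measure only the spread between these samples, which may be technical.

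EB proteins bind directly near the growing microtubule end and recruit most other tip proteins to it. CLIPs attach through their CAP-Gly domains to the tyrosinated tail of tubulin and to EB proteins, and bring in dynactin. CLASPs bind EB proteins and tubulin, favour rescue over shrinkage, and stabilise microtubules at the cell edge, in axons and in growth cones. In neurons these families are known for their parts in axon growth, in the entry of microtubules into dendritic spines, and in cargo loading at microtubule ends.

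Tail reads numbered from 2404074 to 3849077 over the 6 libraries. Fmr1 itself was at 41.7, 45.1 and 46.4 CPM (tail reads summed per gene and scaled by library depth) in WT and at 10.9, 11.8 and 8.22 CPM in Fmr1 KO, which fits the labels. Summed markers of choroid plexus, a tissue bordering the cortex, were at 434, 34.1 and 837.1 CPM in WT replicates 1 to 3. In Fmr1 KO they were between 13.5 and 26.99 CPM. Most of each sum was Ttr, at 422.3, 28.4 and 821.2 CPM in WT. Of the 5 genes, Ttr passed the threshold and Clic6 did not, while Folr1, Kl and Aqp1 had too few reads to be tested. Markers of excitatory neurons summed to 1444 to 1673 CPM in WT and 1723 to 1793 CPM in Fmr1 KO (0 of 5 past the threshold), and those of vessels to 216.0 to 226.9 and 178.3 to 211.6 CPM (0 of 5). Sums for inhibitory neurons, astrocytes, oligodendrocytes, microglia and blood overlapped between the groups. Among the 5 inhibitory markers Sst, an interneuron peptide, passed the threshold and was higher in Fmr1 KO (log2 0.25, edgeR, adjusted p = 0.029). Gad1, Gad2, Slc32a1 and Pvalb had lower means in Fmr1 KO and did not pass.

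Of the 7 genes, Clasp2 was the one whose abundance stood apart by genotype. The members were chosen by symbol in a proposal that had the genotype results in view, in particular the measured abundance of Clasp2 in both genotypes, so its genotype values are given as a description. Clasp2 (ENSMUSG00000033392, mm10, chromosome 9, 113741473 to 113919682, plus strand) gave 366, 483 and 515 tail reads in WT and 161, 87 and 153 in Fmr1 KO. After scaling, this was 112.2, 131.9 and 132.7 CPM in WT and 47.4, 36.7 and 44.9 CPM in Fmr1 KO. Every knockout library lay below every WT library, and the lowest WT value exceeded the highest knockout value by more than the SD of either group. The means were 125.6 ± 11.6 CPM and 43.0 ± 5.62 CPM (SD, n = 3 each), so the knockout level was 34.2% of WT, with a log2 difference of -1.53 ± 0.10 (SE). Among 12543 genes tested this was decrease number 14 by size, and abundance was lower in every knockout library in 8.16% of them and higher in 9.12%. For transcripts, 7.56% of 19933 were lower in every one. In whole tissue, fewer cells of a type and less RNA per cell cannot be told apart.

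**Figure D1:**
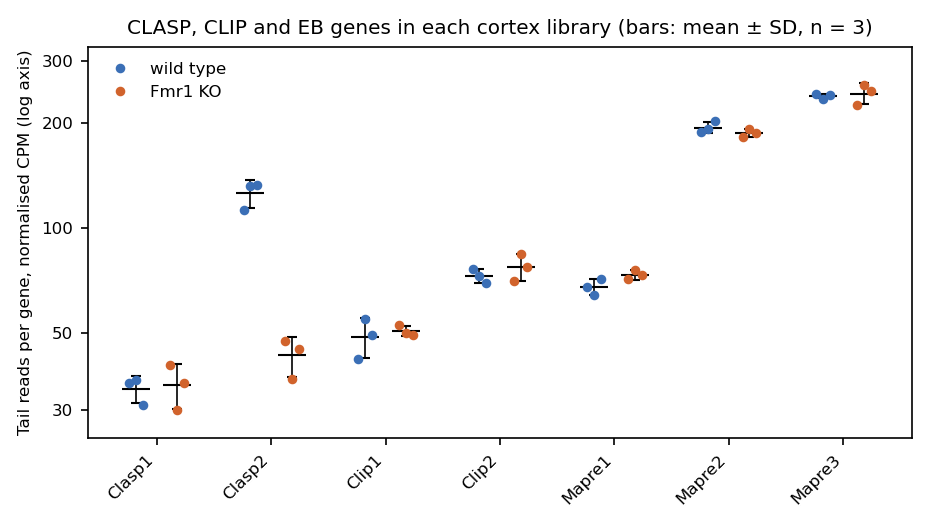
Normalised CPM of the 7 genes (log axis) in each of the 3 WT and 3 knockout libraries, with bars for the mean ± SD. The Clasp2 libraries separate by genotype, with 112.2 CPM as the lowest WT value and 47.4 CPM as the highest knockout value, and points of the other 6 genes overlap between groups.

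One isoform carried nearly all Clasp2 reads. Clasp2 has 11 annotated transcripts, of which 7 had any read and 1 passed the filter of 10 tail reads in every library. That isoform was Clasp2-201 (ENSMUST00000111838.9, chromosome 9, 113812586 to 113919682, 33 exons, 5609 nt with 3858 coding), and it held 96.4% ± 0.63 of the gene's reads in WT and 94.8% ± 1.51 in Fmr1 KO. Its level was 109.3, 130.0 and 129.4 CPM in WT and 44.98, 35.9 and 42.7 CPM in Fmr1 KO, which repeats the pattern of the gene. The 3′ end at 113919682 belongs to Clasp2-201 alone among the annotated isoforms. The 30 bases around the AATAAA match of Clasp2-201, a known form of the poly(A) signal, are shown because they lie near its annotated 3′ end. They lie at chr9:113919650-113919679 (mm10, plus strand, 3′ UTR, last exon), are taken from GENCODE mouse release 21, and have the AATAAA hexamer in capitals.

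Clasp2-201: gcatatactggcAATAAAactgtacataac

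The hexamer begins 21 nt before the annotated end. Whether it serves as the poly(A) signal was not tested, and the ends of the reads were not used here. AATAAA on the transcript strand was in the last 100 bases of 69.2% of the 15851 tested transcripts with a sequence, ATTAAA in 21.7%, and either in 84.1%. The second most-read isoform was Clasp2-206, a short transcript of 1487 nt without a coding sequence, which ends at 113842902, far upstream of the end of Clasp2-201. It had 7, 12 and 18 tail reads in WT and 6, 2 and 9 in Fmr1 KO, too few for a tail comparison. The remaining 5 isoforms with reads had between 1 and 7 reads over all 6 libraries, and 4 had none. Shares of isoforms within Clasp2 were not tested, because only 1 isoform had enough reads.

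The poly(A) tail of Clasp2-201 did not differ between genotypes by more than the spread of the knockout libraries. Its mean tail was 184.0, 184.5 and 180.8 nt in WT, against 176.2, 180.2 and 188.0 nt in Fmr1 KO. The WT values all fell inside the range of the knockout values, so the groups overlapped. The means were 183.1 ± 1.99 nt and 181.5 ± 6.00 nt (SD, n = 3 each), and the log2 difference was -0.01 ± 0.05 (SE; limma, adjusted p = 0.993). The 95% interval of the fold ran from 0.909 to 1.08. The sign of this small difference was not stable: it was positive (log2 0.01) without knockout replicate 1 and also after centring each library on its median. The tail was long for this tissue, exceeding the WT mean of 92.7% of the 16168 transcripts tested.

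In WT replicates 1 to 3, where choroid plexus markers summed to 434, 34.1 and 837.1 CPM, Clasp2 was at 112.2, 131.9 and 132.7 CPM. The genes named next lie near Clasp2 on chromosome 9, and none of them passed the threshold. The log2 difference was -0.27 for Pdcd6ip, in the direction of Clasp2, and 0.12 and 0.05 for Ubp1 and Fbxl2. Pdcd6ip, which encodes the ESCRT-associated protein ALIX, was at 42.8 ± 3.63 CPM in WT and 36.0 ± 2.58 CPM in Fmr1 KO (edgeR, adjusted p = 0.292), and Ubp1, a transcription factor gene, was at 32.0 ± 3.35 and 34.7 ± 1.62 CPM (adjusted p = 0.741). Fbxl2, which encodes an F-box protein, was at 36.4 ± 1.96 and 37.1 ± 6.39 CPM (adjusted p = 0.909). The parts played by choroid plexus content, the higher excitatory marker sums and the lower vessel marker sums of the knockout were not tested.

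In the authors' deposited table, Clasp2-201 had a log2 fold change of 1.43 with a standard error of 0.13. The header gives no direction, and that value is positive where abundance is higher in WT. Without any one library the log2 difference of Clasp2, knockout against WT, lay between -1.60 and -1.44. On deposited RPM (depth-scaled read numbers), Clasp2 was at 119.0, 134.9 and 130.3 RPM in WT and 51.2, 44.8 and 47.4 RPM in Fmr1 KO. The header does not state which reads RPM counts. They need not include those with a tail, because a little-read Clasp2 isoform had 2 tail reads and 0 RPM in knockout replicate 2.

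By the root mean square difference between centred log2 CPM profiles over the 6 libraries, Btg2, an early-response gene of the BTG/Tob family, was among the 3 genes that followed Clasp2 most closely, with a difference of 0.20. Its levels were 33.1 ± 4.12 CPM in WT and 14.2 ± 0.96 CPM in Fmr1 KO. It was lower in every knockout library than in every WT library, as were 8.16% of 12543 genes. Because Btg2 was picked for its likeness to Clasp2 over these same libraries, its separation by genotype follows from that choice.

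Clasp1, the paralogue of Clasp2, was at similar levels in both genotypes. Clasp1 (ENSMUSG00000064302, chromosome 1, 118389058 to 118612678, plus strand) was at 35.9, 36.6 and 30.9 CPM in WT and at 40.4, 29.9 and 35.8 CPM in Fmr1 KO. The groups overlapped, with means of 34.5 ± 3.10 and 35.4 ± 5.23 CPM and a log2 difference of 0.06 ± 0.12 (SE; edgeR, adjusted p = 0.888), whose sign was negative on the RPM scale (log2 -0.03). Per kb of its most-read isoform, the WT level of Clasp1 was 4.95 ± 0.43 RPM per kb against 22.8 ± 1.46 RPM per kb for Clasp2. In the knockout these were 4.84 ± 0.49 and 8.52 ± 0.57 RPM per kb, so Clasp2 remained the higher of the pair in every library. On plain RPM, without division by length, Clasp1 and Clasp2 were closer, at 39.2 ± 3.40 and 128.1 ± 8.20 in WT. In Fmr1 KO they were at 38.3 ± 3.88 and 47.8 ± 3.19 RPM.

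Reads of Clasp1 were spread over many isoforms. Of 30 annotated transcripts, 12 had reads and 4 passed the read filter. Clasp1-218 (ENSMUST00000190571.6, 42 exons, 7910 nt) held 28.4% ± 4.93 of the reads in WT, followed by Clasp1-210 with 20.4% ± 2.48, Clasp1-206 with 17.3% ± 2.08 and Clasp1-203 with 16.01% ± 2.24. Relative to Clasp1-218, Clasp1-203 lacks 5 coding stretches of 24, 27, 108, 24 and 117 nt. Clasp1-210 (ENSMUST00000188710.6) runs 3181 nt further into the 3′ UTR, to 118612678. Long reads that stop short of the coding differences cannot place a molecule among these isoforms, and the lengths of the reads were not used here. The 30 bases around the ATTAAA match of Clasp1-218 are shown for comparison with its paralogue. They lie at chr1:118609431-118609460 (plus strand, 3′ UTR, last exon) and have the ATTAAA variant in capitals. It begins 55 nt before the annotated end, against 21 nt for the hexamer of Clasp2-201. Whether it serves as the signal was not tested.

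Clasp1-218: ctaaaaaagaaaATTAAAaaaaaaaaagcc

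No AATAAA or ATTAAA was found in the last 100 bases of Clasp1-210, which says only that these letters are not in that window. The tail of Clasp1-218 was 188.2, 167.5 and 182.1 nt in WT, against 147.6, 152.6 and 184.5 nt in Fmr1 KO, from 19 to 44 reads a library. These values overlapped, and knockout replicate 3 lay within the WT range. Clasp1-210 gave 167.1, 170.0 and 162.5 nt in WT, against 162.3, 161.5 and 148.8 nt in Fmr1 KO. Its knockout values all lay below its WT values, by only 0.2 nt at the nearest point, and the difference did not pass the threshold (log2 -0.08 ± 0.06, limma, adjusted p = 0.904). Over all Clasp1 reads, whatever their isoform, the mean tail was 164.4, 167.6 and 172.8 nt in WT, against 161.1, 148.1 and 163.3 nt in Fmr1 KO. Here too the groups did not overlap, and the test was not passed (log2 -0.10 ± 0.05, adjusted p = 0.816). Non-overlapping tails were found in 10.9% of all 16168 transcripts tested, with the knockout lower in 7.53%, and non-overlapping tails over all reads in 11.7% of 11323 genes, with the knockout lower in 8.44% and higher in 3.22%. Clasp1-226, annotated as a target of nonsense-mediated decay, was also lower in every knockout library (132.2, 108.6 and 140.6 nt against 147.3, 162.7 and 158.1 nt), but had as few as 5 reads in one and was not tested.

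**Figure D2:**
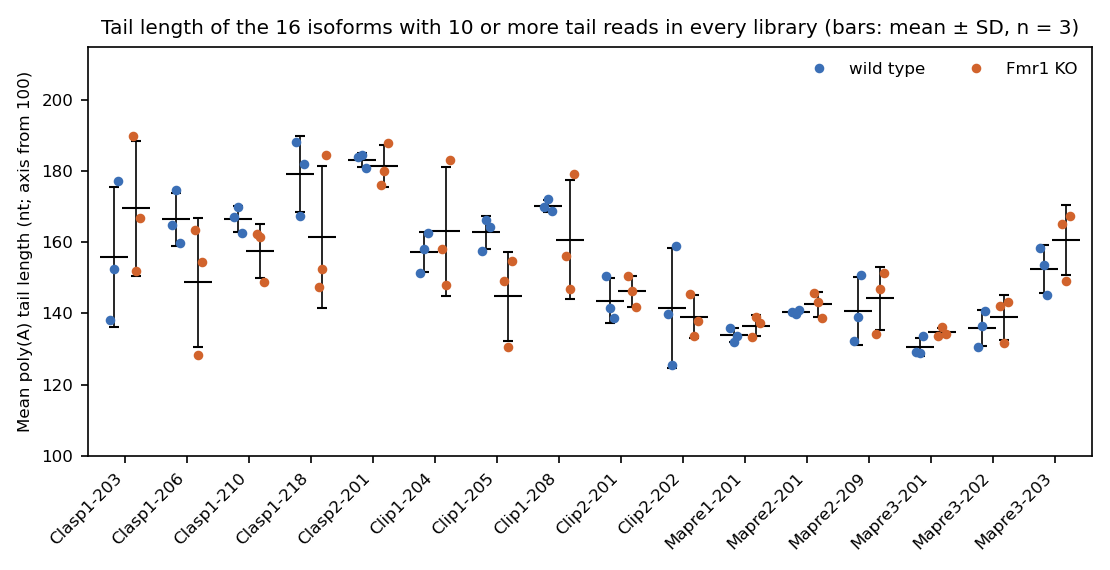
Mean poly(A) tail length (nt, axis from 100) of the 16 isoforms with at least 10 tail reads in every library, as points for each WT and knockout library with bars for the mean ± SD. Clasp2-201 lies near 183.1 nt in WT, and Mapre3-201 lies near 130.5 nt. The spread between libraries differs by isoform, from an SD of 0.64 nt for Mapre2-201 in WT to 20.02 nt for Clasp1-218 in Fmr1 KO.

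Clip1, which encodes the founding CLIP (CLIP-170), showed no genotype difference in abundance beyond its spread. Clip1 (ENSMUSG00000049550, chromosome 5, 123577795 to 123684618, minus strand) was at 42.0, 54.6 and 49.2 CPM in WT and 52.5, 49.8 and 49.3 CPM in Fmr1 KO. All knockout values lay inside the WT range, and the log2 difference was 0.05 ± 0.10 (SE; edgeR, adjusted p = 0.886). Of 15 annotated transcripts, 9 had reads and 3 passed the filter. Clip1-208 (ENSMUST00000137363.7), whose annotated model begins inside the gene, held 52.3% ± 2.28 of WT reads, Clip1-204 held 19.9% ± 3.14 and Clip1-205 held 17.1% ± 1.93. Clip1-205 (ENSMUST00000111566.8) differs from Clip1-204 in its coding sequence by a further stretch of 228 nt at 123630225 to 123630452. These 3 isoforms end within 12 nt of each other. A read that stops short of the 228 nt stretch cannot tell Clip1-205 from Clip1-204, and read lengths were not used here.

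Clip1-208: tgagttctgtatctactttAATAAAtgttt

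The window of Clip1-208 lies at chr5:123577807-123577836 (minus strand, 3′ UTR, last exon), has the hexamer in capitals, and is shown because the hexamer stands closer to the end than in Clasp2-201. The tail of Clip1-205 was 157.7, 166.3 and 164.4 nt in WT, against 149.1, 130.6 and 154.7 nt in Fmr1 KO. The knockout values all lay below the WT values, and the test was not passed (162.8 ± 4.53 against 144.8 ± 12.6 nt, log2 -0.17 ± 0.07, limma, adjusted p = 0.843). Tails were lower in every knockout library in 7.53% of the 16168 transcripts tested. The tails of Clip1-208 averaged 170.3 ± 1.77 nt in WT and 160.8 ± 16.7 nt in Fmr1 KO, and those of Clip1-204 averaged 157.4 ± 5.58 and 163.2 ± 18.1 nt. The spread of these tails in Fmr1 KO came with 25 to 87 reads a library, and the smaller spread in WT with 25 to 108. Clip1-204, Clip1-205 and Clip1-208 all had their shortest knockout tail in replicate 2 and their longest in replicate 3. The cause was not tested.

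Clip2, which encodes CLIP-115, a neuronal CLIP, was at 76.1, 72.6 and 69.3 CPM in WT and 70.4, 83.9 and 77.2 CPM in Fmr1 KO. The groups overlapped (log2 0.08 ± 0.09, edgeR, adjusted p = 0.759), and the sign of the difference was negative on the RPM scale (log2 -0.04). Its isoforms Clip2-201 and Clip2-202 (ENSMUSG00000063146, chromosome 5, 134489383 to 134552434, minus strand) share a start, and Clip2-202 has 1 exon more. That coding exon of 105 nt at chr5:134504734-134504838 (minus strand) is the feature that separates them apart from 4 nt at the 3′ end. It is shown in capitals with the 9 bases of coding sequence on each side, as spliced, from GENCODE mouse release 21.

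Clip2-202: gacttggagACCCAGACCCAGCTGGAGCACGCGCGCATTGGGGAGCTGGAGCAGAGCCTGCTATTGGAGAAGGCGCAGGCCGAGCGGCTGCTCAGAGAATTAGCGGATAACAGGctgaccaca

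The isoform with this exon, Clip2-202 (ENSMUST00000100647.6), was at 17.3, 17.8 and 20.7 CPM in WT and 21.2, 27.8 and 28.2 CPM in Fmr1 KO. The isoform without it, Clip2-201 (ENSMUST00000036999.9), was at 59.3, 56.1 and 49.8 CPM in WT and 50.04, 57.3 and 49.9 CPM in Fmr1 KO. Clip2-202 was higher in every knockout library than in every WT library, while Clip2-201 overlapped. The share of Clip2 reads assigned to Clip2-202 was 22.6, 24.1 and 29.4% in WT and 29.7, 32.7 and 36.1% in Fmr1 KO. Neither measure passed the threshold. The abundance log2 difference was 0.45 ± 0.16 (edgeR, adjusted p = 0.263). The share difference was 0.255 in natural-log units (edgeR's exon-usage test, adjusted p = 0.99997). Non-overlapping abundance was found in 15.6% of the 19933 transcripts tested, with the knockout higher in 8.07%. Non-overlapping shares were found in 10.7% of the 12789 tested, with the knockout higher in 5.18% and lower in 5.54%. Tails of both isoforms overlapped between genotypes, at 143.6 ± 6.29 and 146.3 ± 4.30 nt for Clip2-201 and 141.5 ± 16.8 and 139.0 ± 6.03 nt for Clip2-202. A read that stops short of the 105 nt exon has only the 4 nt at the 3′ end to separate these isoforms. Read lengths were not used here.

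**Figure D3:**
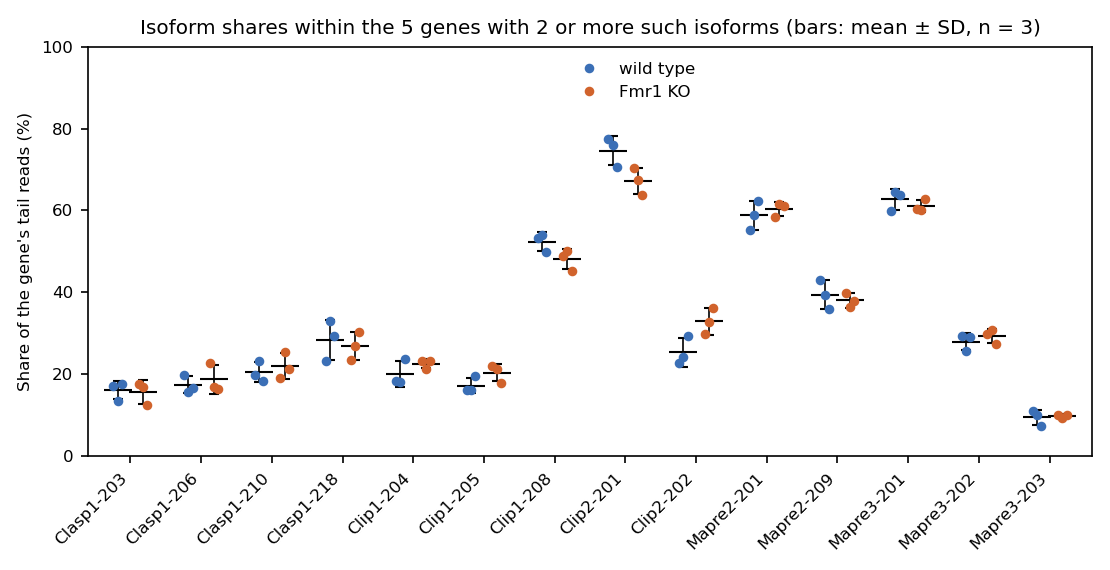
Share of each gene's tail reads (%) held by the isoforms that passed the read filter, in the 5 genes with 2 or more such isoforms, as points for each library with bars for the mean ± SD. Clip2-202 rests at 25.3% in WT and 32.8% in Fmr1 KO without overlap, and the Mapre2 and Mapre3 isoforms overlap.

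Among the EB genes, Mapre3, which encodes the neuron-enriched EB3, was the most abundant per length. Its WT level was 118.8 ± 2.43 RPM per kb, followed by Mapre2 (EB2) at 52.1 ± 1.47, Clasp2 at 22.8 ± 1.46, Clip2 at 15.8 ± 0.26, Clip1 at 10.9 ± 0.95, Mapre1 (EB1) at 9.92 ± 0.34 and Clasp1 at 4.95 ± 0.43 RPM per kb. The neighbours Clip1 and Mapre1 overlapped across WT libraries, and the other neighbouring pairs in this order did not. Because a direct RNA read stands for 1 molecule whatever its length, dividing by length lowers long transcripts relative to short ones and the order on plain RPM differs. On plain RPM, WT levels were 240.2 ± 4.91 for Mapre3, 209.8 ± 5.94 for Mapre2, 128.1 ± 8.20 for Clasp2, 77.2 ± 1.29 for Clip2, 72.8 ± 2.48 for Mapre1, 51.1 ± 4.44 for Clip1 and 39.2 ± 3.40 for Clasp1, so Mapre1 lay above Clip1. In the knockout Clasp2 took a lower place, at 8.52 ± 0.57 RPM per kb, below Mapre1 at 9.98 ± 0.45.

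Mapre1 (ENSMUSG00000027479, chromosome 2, 153741274 to 153773310, plus strand) had all its reads on Mapre1-201, whose last exon of 6437 nt makes up most of its 7336 nt. It was at 67.8, 63.9 and 71.1 CPM in WT and 71.0, 75.5 and 73.1 CPM in Fmr1 KO. The highest WT value and the lowest knockout value were close to equal, and the log2 difference was 0.11 ± 0.08 (SE; edgeR, adjusted p = 0.637). Its tail averaged 133.9 ± 1.93 nt in WT and 136.6 ± 2.92 nt in Fmr1 KO, with overlap.

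Mapre1-201: ctcaatttctttAATAAAaggtctcaaact

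The window of Mapre1-201 lies at chr2:153773274-153773303 (plus strand, 3′ UTR, last exon), with the hexamer in capitals, and is shown because Clasp2-201 and Mapre1-201, which have the same AATAAA hexamer 21 and 25 nt before the end, had WT tails of 183.1 and 133.9 nt. Mapre2 (ENSMUSG00000024277, chromosome 18, 23752333 to 23893861, plus strand) was at 187.7, 191.7 and 202.0 CPM in WT and 182.4, 191.5 and 186.6 CPM in Fmr1 KO (log2 -0.06 ± 0.07, edgeR, adjusted p = 0.797). The CPM groups overlapped, while the deposited RPM groups did not, at 209.8 ± 5.94 in WT and 192.6 ± 7.85 in Fmr1 KO. On the RPM scale 19% of the 12543 genes did not overlap, with the knockout lower in 13.3% and higher in 5.72%, against 17.3% on the CPM scale. Its isoforms Mapre2-201 and Mapre2-209 have different annotated first exons, and Mapre2-201 has 119 coding nt at its start that Mapre2-209 lacks. They held 58.8% ± 3.51 and 39.4% ± 3.503 of WT reads, with overlapping shares in Fmr1 KO of 60.4% ± 1.68 and 38.0% ± 1.79. Their tails were 140.4 ± 0.64 and 140.7 ± 9.51 nt in WT. Apart from 4 nt at the 3′ end, these isoforms differ only near their 5′ ends. A read that stops short of that part can hardly be placed between them, and read lengths were not used here.

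Mapre3 (ENSMUSG00000029166, chromosome 5, 30814641 to 30866106, plus strand) was at 241.4, 234.6 and 239.6 CPM in WT and 224.6, 257.3 and 246.2 CPM in Fmr1 KO. The WT values all lay inside the knockout range (log2 0.02 ± 0.07, edgeR, adjusted p = 0.929), and the sign was negative on the RPM scale (log2 -0.04). Its reads fell on Mapre3-201 (62.7% ± 2.54 in WT), Mapre3-202 (27.9% ± 2.11) and Mapre3-203 (9.34% ± 1.81). Mapre3-202 lacks the last 45 coding nt of an exon, at chr5:30863361-30863405 (plus strand), a different splice donor. Those bases are shown in capitals within the spliced coding sequence of Mapre3-201, because they separate the annotated forms of EB3 to which these reads were assigned. A read that stops short of them does not show this difference, and read lengths were not used here.

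Mapre3-201: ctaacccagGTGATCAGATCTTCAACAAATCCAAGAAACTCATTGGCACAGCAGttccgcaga

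Mapre3-203 (ENSMUST00000201347.3) is annotated as a retained-intron transcript. It keeps the intron between exons 3 and 4 of the 7 exons of Mapre3-201, 560 nt at 30862644 to 30863203, which lies 1442 nt from its 3′ end. The 30 bases across each edge of that intron are shown with the first and the last pair of intron bases in capitals, at chr5:30862629-30862658 and chr5:30863189-30863218 (plus strand).

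Mapre3-203 start of the retained intron: atgggtgttgacaaaGTaggtgtctgtacc

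Mapre3-203 end of the retained intron: tgtggtctatttcAGatcattcccgtagag

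The tail of Mapre3-201 was 129.2, 128.9 and 133.5 nt in WT, against 133.6, 136.1 and 134.3 nt in Fmr1 KO. All knockout values lay above the WT values, by only 0.1 nt at the nearest point, and the difference did not pass the threshold (130.5 ± 2.60 against 134.7 ± 1.30 nt, log2 0.05 ± 0.04, limma, adjusted p = 0.928). Non-overlapping tails with the knockout higher were found in 3.41% of the transcripts tested. Those of Mapre3-202 were 135.9 ± 5.11 and 138.9 ± 6.28 nt, with overlap.

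Within a library, isoforms of one gene can be compared with each other, a contrast that does not use the genotypes. For 9 isoforms of 5 of the genes, the tail was set against that of the most-read isoform of the same gene. The intron-retaining Mapre3-203 carried a longer tail than Mapre3-201 in 6 of 6 libraries. Its tail was 158.5, 153.6 and 145.1 nt in WT, against 165.1, 149.3 and 167.4 nt in Fmr1 KO, and the differences were 29.3, 24.8 and 11.6 nt in WT, against 31.5, 13.1 and 33.1 nt in Fmr1 KO. Every Mapre3-203 value, from 56 to 85 reads, lay above every Mapre3-201 value. The mean difference was 23.9 ± 9.37 nt (SD, n = 6), from 156.5 ± 8.80 against 132.6 ± 2.93 nt, or 0.24 ± 0.04 on the log2 scale (SE; limma over all 5517 such pairs, adjusted p = 0.00917). With the 3 WT libraries alone the difference was 0.22 and no longer passed the threshold (adjusted p = 0.116), and without any one library it stayed between 0.22 and 0.27 and passed. A read that stops short of the intron, 1442 nt from the 3′ end, cannot show whether the intron was kept. Read lengths were not used here, so the part played by read placement was not tested.

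Of the 9 pairs this was the only one past the threshold, against 15.2% of all 5517 pairs, with 9.62% longer and 5.56% shorter than the most-read isoform. Retained-intron isoforms set against a protein-coding main isoform were longer past the threshold in 169 of 554 pairs (30.5%) and shorter in 26. For protein-coding isoforms set against one, 247 of 3893 were longer (6.34%) and 203 shorter. Whether Mapre3 differs from other genes with such isoforms was not tested. Mapre3-202, which ends at the same base as Mapre3-203, 47 nt before Mapre3-201, was longer than Mapre3-201 in 5 of 6 libraries by 4.81 ± 5.29 nt (adjusted p = 0.439).

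Clip1-205 had a shorter tail than Clip1-208 in 6 of 6 libraries, with differences of -12.2, -5.96 and -4.35 nt in WT, against -7.15, -16.3 and -24.6 nt in Fmr1 KO, and did not pass the threshold (log2 -0.11 ± 0.04, limma, adjusted p = 0.120). Clip1-204 was shorter than Clip1-208 in the 3 WT libraries and longer in the 3 knockout libraries, with a mean of -12.9 nt in WT and 2.38 nt in Fmr1 KO. That contrast between genotypes was not tested. Such differences did not overlap between genotypes in 10.3% of the 5517 pairs, with the knockout higher in 4.75% and lower in 5.51%. The differences of the other 5 pairs, 3 of Clasp1, 1 of Clip2 and 1 of Mapre2, took both signs across the 6 libraries.

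**Figure D4:**
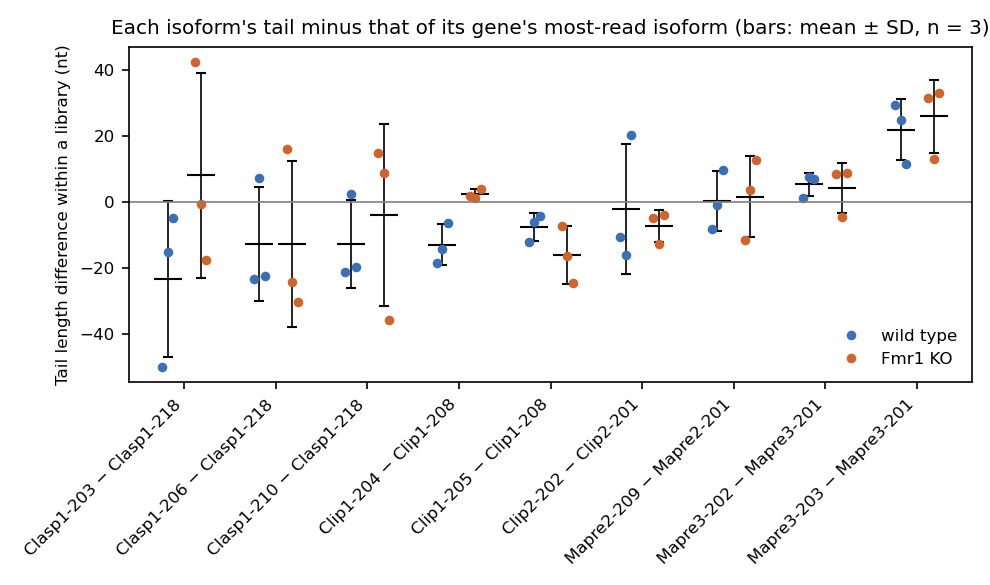
Difference in mean tail length (nt) between an isoform and the most-read isoform of its gene within each library, for 9 pairs, as points for WT and knockout libraries with bars for the mean ± SD and a line at 0. All 6 points of Mapre3-203 lie above 0, from 11.6 to 33.1 nt, and all 6 of Clip1-205 lie below it.

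Mean tail over all reads of a gene was also ordered in WT. Of the 7 genes Clasp2 had the longest at 181.6 ± 2.08 nt, then Clasp1 at 168.2 ± 4.27, Clip1 at 162.8 ± 3.65, Clip2 at 143.5 ± 5.38, Mapre2 at 140.0 ± 4.29, Mapre3 at 134.1 ± 1.996 and Mapre1 at 133.9 ± 1.93 nt. Clasp2 lay above Clasp1 in every WT library, and Clip1 lay above Clip2 in every one. Neighbours that overlapped across WT libraries were Clasp1 and Clip1, Clip2 and Mapre2, Mapre2 and Mapre3, and Mapre3 and Mapre1. In the knockout the means were 179.6 ± 5.24, 157.5 ± 8.19, 157.9 ± 15.1, 143.9 ± 4.51, 143.0 ± 1.82, 138.4 ± 2.15 and 136.6 ± 2.92 nt in the same order of genes. Both CLASPs and Clip1 had lower means in Fmr1 KO and the other 4 genes had higher ones, and none of the 7 passed the threshold.

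Counted over the members, 1 of 7 genes tested for abundance passed the threshold, Clasp2, against 1.03% of 12543 genes. For transcript abundance it was 1 of 19 tested, Clasp2-201, against 0.517% of 19933. For tail length it was 0 of 16 isoforms, against 0% of 16168, with 944 transcripts of the whole table under an unadjusted p of 0.05 and 22 past the threshold when limma weighted by read number. For isoform share it was 0 of 17, against 0.0469% of 12789 (0.00782% with a higher and 0.0391% with a lower share in Fmr1 KO). The members were proposed with genotype results in view, so nothing is read from the counts on abundance. Of the 16 isoforms, 9 had a longer mean tail in Fmr1 KO and 7 a shorter one, with a median log2 difference of 0.02 against -0.01 over all transcripts tested, of which 58.8% had a shorter mean in Fmr1 KO.

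Other genes of the microtubule tip were then read from a list of 36, among them dynein and dynactin subunits, GSK3 kinases that phosphorylate CLASPs and CRMPs, spectraplakins, CAMSAP minus-end proteins, navigators and LIS1 with its partners. Of these, 33 were tested for abundance and 0 passed the threshold in either direction, against 0.574% of genes higher and 0.454% lower over the whole table. Their means were higher in Fmr1 KO for 8 and lower for 25, against 6192 higher and 6351 lower of all 12543 genes, with a median log2 difference of -0.08 against -0.003 for all genes. The 4 with most reads are given for scale. Clip3, a CLIP of the Golgi, was at 300.4 ± 22.7 CPM in WT and 319.5 ± 4.70 CPM in Fmr1 KO, and Gsk3a at 260.0 ± 10.9 and 239.9 ± 7.96 CPM. Dctn1, the dynactin subunit bound by CLIPs and EBs, was at 220.8 ± 7.42 and 215.2 ± 7.61 CPM. Pafah1b1, which encodes the dynein regulator LIS1, was at 195.9 ± 58.35 and 183.8 ± 29.8 CPM.

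**Figure D5:**
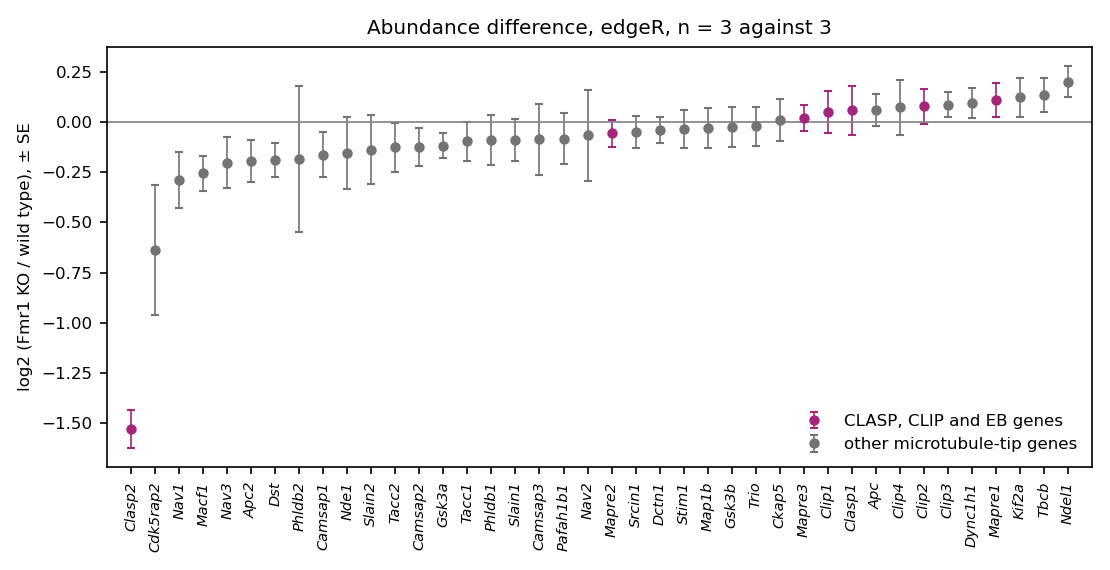
Log2 difference in abundance, knockout over WT, with its SE (edgeR), for the 7 CLASP, CLIP and EB genes and the 33 other microtubule-tip genes tested, sorted by value. Clasp2 lies at -1.53, and the other 6 genes of these families lie between -0.06 (Mapre2) and 0.11 (Mapre1).

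For tails, 31 of the 36 genes had a most-read isoform past the read filter, and 0 passed the threshold. Of these, 9 had a longer and 22 a shorter mean in Fmr1 KO, with a median log2 difference of -0.02 against -0.01 for the most-read isoforms of all genes. The tail of Clip3 averaged 136.1 ± 1.72 nt in WT and 132.9 ± 0.55 nt in Fmr1 KO, that of Gsk3a 130.5 ± 3.47 and 130.0 ± 2.91 nt. Dctn1 had 137.4 ± 2.305 and 140.3 ± 3.71 nt, and Pafah1b1 had 144.1 ± 7.98 and 136.3 ± 2.78 nt. Against the 183.1 nt of Clasp2-201 in WT, 5 of these 31 tails were longer in WT and 26 shorter, a comparison given without a test. The 5 were those of Nav2 at 218.5 nt, Macf1 at 209.6, Phldb1 at 207.8, Trio at 195.8 and Nav1 at 194.7 nt.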

How the data were processed

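Direct RNA sequencing of cortex poly(A) RNA gave 6 libraries, grouped by their titles. Per the file headers, the authors deposited for each transcript and library the average poly(A) tail (nt), the count of reads it rests on, and RPM (a depth-scaled read number). Their own comparison is in the deposited table too, as a mean signal per transcript, a log2 fold change and its error, a score and a p-value. How tails were estimated is not stated in the labels. Tools listed without roles, per the submitters' processing notes, are DESeq2, Salmon 1.5.2, minimap2 2.17 and SAMtools 1.9, with build mm10. RPM values were whole multiples of 1 read, within 0.01 of a read, in 99.8% (WT replicate 1) and 100% (each other library) of cases. A count test on the reads so recovered, chosen after seeing the data, called 101 genes.

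On the scale log2(mean nt + 1), limma 3.58.1 compared tails for transcripts with at least 10 tail reads in every library. Abundance was tested on tail-read counts with edgeR 4.0.16 (TMM, filterByExpr, quasi-likelihood), and isoform shares with its exon-usage test. Isoform tails were compared within libraries with limma. All p-values were adjusted by Benjamini-Hochberg over the whole table, with a threshold of 0.05. CPM are normalised tail-read counts. Values are mean ± SD over 3 libraries unless stated otherwise. The tests were tried on simulated data first.

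Isoforms, coordinates and sequences came from GENCODE mouse release 21 (mm10), which held 77 of the 77 member transcripts. Named were all members, the network genes past the threshold or otherwise the 4 with most reads, and the 3 genes most like Clasp2, of which 1 is reported here. The members and lists were chosen with earlier results of these data known. Replicate numbers did not pair the samples.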

Additional observations from a re-analysis of the deposited data

How the results depend on the processing

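Each result was recomputed under other settings. The number of genes past the threshold moved from 129 to 83 with DESeq2, 249 with no filter on low counts, 40 by limma with a pseudocount of 1 RPM, and 33 by limma with 0.1 RPM. It ranged from 57 to 206 without one library. For transcript abundance the 103 became 52 with DESeq2, 180 with no filter, and 34 and 24 with limma on the 2 RPM scales, and ranged from 44 to 163 without one library. Transcripts with a changed tail went from 0 to 22 with weights from the read number. The 6 changed shares became 3 with limma on the log2 share and 3 with at least 10 tail reads in every library, and ranged from 4 to 7 without one library. The 838 isoform pairs became 429 with at least 30 tail reads, 1300 with at least 3 and 481 with the WT libraries alone, and ranged from 582 to 807 without one library. The log2 tail difference of Mapre2-209 against Mapre2-201 changed from 0.01 to -0.016 without WT replicate 3 and to -0.0199 without knockout replicate 3, the lowest, with 0.0407 as the highest without one library. That of Clasp1-210 against Clasp1-218 changed from -0.067 to 0.0024 without knockout replicate 3, with -0.109 as the lowest. That of Mapre3-203 against Mapre3-201 was 0.22 in the WT libraries alone. Fewer samples or fewer tested transcripts enter some of these fits, and otherwise the cause was not tested.

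The replicate numbers did not pair the samples: same-numbered libraries correlated between -0.06 and 0.04 in their deviations. With the number as a replicate block, 92 genes, 171 transcripts, 6 shares and 0 tails passed, and Clasp2 was at -1.53. A library left out leaves 2 in its group.

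Tails of isoforms with few reads rest on small samples of molecules. Intervals and SDs cover the spread between libraries only. Tails are means, so a change in the spread of tail lengths within a transcript cannot be seen.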
